A study of Homo sapiens with 6 samples.

Results

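The forkhead genes encode transcription factors of the FOX family. Members were taken by symbol as the protein-coding genes named FOX, a letter from A to S and a number, with the numbered FOXD4L copies. This gave 50 genes among 19451 protein-coding genes on chromosomes 1 to 22 and X in the RefSeq annotation of GRCh38.p14, with genes shorter than 1 kb left out. The series used HEK293T cells, a human embryonic kidney line that carries the SV40 large T antigen. No treatment or genetic change is given in the labels. Chromatin immunoprecipitation and sequencing (ChIP-seq) was done with 5 antibodies, 1 library each: H2AZ from CST and H2AZ from Abcam against the histone variant H2A.Z, and 1 antibody each against H3.3 (a variant of H3), H4K16ac (histone H4 acetylated on lysine 16) and H3K79me2 (histone H3 with dimethylated lysine 79). An input library completed the 6 samples, and no values of it were used here. Each antibody had a single library, so no value below has a replicate error and none was given a p-value.

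Forkhead proteins share a winged-helix DNA-binding domain that recognises a short site with the core TGTTTAC. Members of the A group can bind compacted chromatin and help to open it, and many other members direct the formation of a single tissue in the embryo. The O group is held in the cytoplasm when AKT phosphorylates it downstream of insulin, M1 drives mitotic genes, and the K group is widely expressed. Among the chromatin features, H2A.Z is exchanged into nucleosomes beside gene starts, H3.3 is placed into chromatin outside replication, KAT8 acetylates lysine 16 of H4, and DOT1L methylates lysine 79 of H3 behind elongating RNA polymerase. None of the lists measures transcription itself.

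Most forkhead genes had H2A.Z and H3.3 at an end, and fewer than those had H3K79me2. A peak was assigned to a gene end when it reached within 1 kb of either end by at least 1 bp. H2AZ CST was at an end of 34 of the 50 forkhead genes, against 70.7% of all genes tested, and H2AZ Abcam was at an end of 36, against 71.1%. H3.3 was at an end of 37, against 64.5%, and H4K16ac at an end of 32, against 55.0%. H3K79me2 was at an end of 23 members, which is 46.0% of them, against 55.4% of all genes. All 5 lists met at 15 members (30.0%), against 38.2% of all genes.

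H3K79me2 lay inside the gene in 24 members (48.0%, against 58.3% of all genes), and over most of the gene in fewer. Cover is the share of a gene's bases under peaks of a list. At least 10% of the gene lay under H3K79me2 in 16 members, called covered here, against 30.5% of all genes. At least 50% of the gene lay under it in 10 members (20.0%), against 7.46% of all genes. Forkhead genes are short, and 34 of the 50 were under 10 kb (68.0%), against 26.4% of all genes. Within genes under 10 kb, H3K79me2 covered at least 50% of 23.5% of forkhead genes and 17.6% of all genes. Among genes of 10 kb or longer the shares were 12.5%, which is 2 of 16 members, and 3.83%.

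Length divided the family in a further way. Of the 34 forkhead genes under 10 kb, 10 carried H3K79me2 at an end (29.4%), against 44.7% of all genes of that length. The 34 include FOXD4 and its copies, which had no end peak and whose values are uncertain, as set out below. Without FOXD4 and its copies, H3K79me2 was at an end of 23 of 44 members of any length (52.3%, against 55.4%). That share takes in the longer members, and the share for genes under 10 kb without the copies was not computed. Of the 16 longer forkhead genes, 13 carried H3K79me2 at an end (81.2%), against 59.2%. H3.3 was at both ends of 18 members (36.0%), against 18.3% of all genes, and 15 of these 18 were under 10 kb, where the windows of the 2 ends lie close together. A further 11 members had H3.3 and H2A.Z of either antibody at an end, with no H3K79me2 at an end and under 10% cover. They are called H2A.Z-H3.3 members here and made up 22.0% of the family, against 12.0% of all genes. No end peak of any list was found at 7 members, against 21.5% of all genes, and the remaining 16 showed other patterns.

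**Figure D1:**
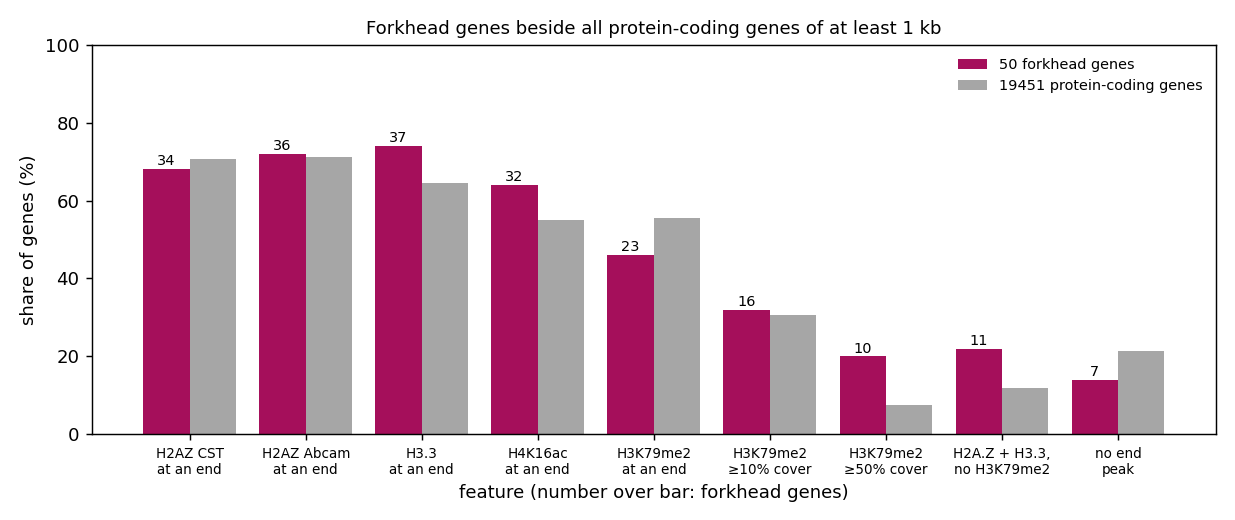
Share of genes, in percent, that carried each feature: red bars are the 50 forkhead genes, with their number above the bar, and grey bars the 19451 protein-coding genes. The red bar stands above the grey one for H3K79me2 over at least 50% of the gene (20.0% against 7.46%) and below it for H3K79me2 at an end (46.0% against 55.4%).

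A set of 6 promoters shows the range of sequence and of chromatin within the family; sequences are from RefSeq on GRCh38.p14, the 250 bases before the listed start, read 5′ to 3′ on the gene's strand, with every CpG in capitals. FOXC1 (chr6:1609665-1609914, plus strand) is the most fully covered member, FOXD3 (chr1:63322317-63322566, plus strand) has H2A.Z and H3.3 on the promoter and H3K79me2 only inside the gene, and FOXK2 (chr17:82519482-82519731, plus strand) has the longest stretch of its gene under a single H3K79me2 peak. FOXQ1 (chr6:1311848-1312097, plus strand) has the strongest H3.3 end peak of the H2A.Z-H3.3 members. FOXR2 (chrX:55623150-55623399, plus strand) and FOXD4L3 (chr9:68302617-68302866, plus strand) have no end peak.
FOXC1: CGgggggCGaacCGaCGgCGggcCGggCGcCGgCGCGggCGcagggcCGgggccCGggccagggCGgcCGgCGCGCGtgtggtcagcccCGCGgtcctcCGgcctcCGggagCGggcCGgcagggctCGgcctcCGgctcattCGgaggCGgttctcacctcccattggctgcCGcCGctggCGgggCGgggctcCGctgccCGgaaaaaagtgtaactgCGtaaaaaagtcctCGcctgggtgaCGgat
FOXD3: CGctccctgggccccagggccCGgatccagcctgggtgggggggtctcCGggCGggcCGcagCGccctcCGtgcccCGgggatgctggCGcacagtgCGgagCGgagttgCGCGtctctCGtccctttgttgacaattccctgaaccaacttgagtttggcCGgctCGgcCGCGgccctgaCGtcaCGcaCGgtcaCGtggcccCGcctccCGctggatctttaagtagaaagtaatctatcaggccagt
FOXK2: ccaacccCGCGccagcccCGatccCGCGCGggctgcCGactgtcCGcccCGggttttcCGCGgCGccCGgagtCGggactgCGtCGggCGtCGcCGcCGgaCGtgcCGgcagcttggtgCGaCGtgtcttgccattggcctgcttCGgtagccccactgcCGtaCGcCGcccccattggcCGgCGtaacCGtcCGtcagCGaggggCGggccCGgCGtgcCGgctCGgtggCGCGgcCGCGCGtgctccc
FOXQ1: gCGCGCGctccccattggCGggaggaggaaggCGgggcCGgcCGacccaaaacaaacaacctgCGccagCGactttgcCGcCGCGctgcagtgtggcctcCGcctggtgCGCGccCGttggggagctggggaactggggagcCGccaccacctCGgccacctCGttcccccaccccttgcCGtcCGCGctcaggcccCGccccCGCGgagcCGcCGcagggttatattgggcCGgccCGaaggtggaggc
FOXR2: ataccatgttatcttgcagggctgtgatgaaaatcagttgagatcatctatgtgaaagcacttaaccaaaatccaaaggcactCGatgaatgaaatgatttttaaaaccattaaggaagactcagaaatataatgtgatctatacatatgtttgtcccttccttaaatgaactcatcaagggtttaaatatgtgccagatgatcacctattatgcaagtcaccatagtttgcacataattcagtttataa
FOXD4L3: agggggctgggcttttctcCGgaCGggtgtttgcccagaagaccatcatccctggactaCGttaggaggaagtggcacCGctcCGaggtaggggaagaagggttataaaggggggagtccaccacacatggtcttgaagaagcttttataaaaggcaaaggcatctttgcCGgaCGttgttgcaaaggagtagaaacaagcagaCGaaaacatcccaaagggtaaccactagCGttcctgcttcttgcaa

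These 250 bases held 43 CpGs at FOXK2, 37 at FOXC1, 29 at FOXQ1 and 24 at FOXD3. The FOXD4L3 stretch held 9 and the FOXR2 stretch 1. Over the 300 bases from 250 before to 50 after the start, FOXC1 lay wholly under H3K79me2 and under no other list. The same window of FOXD3 lay wholly under both H2A.Z lists, H3.3 and H4K16ac, with no base under H3K79me2. At FOXQ1 all of the window was under H2AZ Abcam, 68.7% under H3.3 and 10.0% under H2AZ CST. The FOXK2 window, although the richest in CpG of the 6, had no peak of any list, and the H3K79me2 peak of that gene began 120 bases past the start.

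Of the 16 covered genes, 9 were under 10 kb, and all 9 had H3K79me2 at both ends. Over all covered genes of any length, 1362 of 5927 had it at both ends. Among all genes under 10 kb with H3K79me2 at an end, 922 of 2295 did. Choosing short genes by cover itself favours a peak at both ends. The 9 short covered genes included FOXA1, FOXB1, FOXC1, FOXD1, FOXD2, FOXD3, FOXF1 and FOXF2. Each of these encodes a regulator of embryonic tissues. The H3K79me2 cover of the 9 had a median of 80.2% and ran from 25.2% at FOXD2 to 100% at FOXC1. The other 7 covered genes were FOXJ3, FOXK1, FOXK2, FOXM1, FOXN2, FOXO1 and FOXO3, of 19.5 to 159 kb. In these the median cover was 17.5%, and none had H3K79me2 at both ends. Among all genes of 10 kb or longer with it at an end, 606 of 8481 had it at both. The last member inside the 10% limit was FOXJ3 with 15.5%, and the first outside was FOXI3 with 8.85%.

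Peak strength is given as the −log10 q of the strongest peak at an end, as the authors' peak caller wrote it; it ranks peaks within a list and not between lists. FOXC1, which encodes a factor of the eye's anterior segment, had the strongest H3K79me2 end peak of the family. Its −log10 q of 879 was the 14th of the 10776 genes with such a peak. The peak spanned 22.7 kb (chr6:1603767-1626455), which is more than the 3.98 kb gene, and its summit lay 5441 bases past the start, beyond the far end of the gene. The nearest end of the neighbouring gene GMDS lies 9.91 kb away, and the peak reached into it. H3.3 at the ends of FOXC1 had a −log10 q of 50.3 and H4K16ac 9.16. Neither H2A.Z list had a peak within 1 kb of an end, which at this window made FOXC1 the only forkhead gene with H3K79me2 at an end and no H2A.Z of either antibody, a pattern seen at 1.16% of all genes. The nearest H2AZ Abcam peak lay just outside, at 1031 bases from the gene, and the nearest H2AZ CST peak at 5.45 kb.

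FOXD1, which marks stromal progenitors of the developing kidney, had 86.0% under H3K79me2 (end −log10 q 368). There H3.3 was at 11.4, H2AZ CST at 9.68 and H2AZ Abcam at 25.0, with no H4K16ac. All 3 values were below the family's medians of 25.7 for H2AZ CST, 105 for H2AZ Abcam and 21.6 for H3.3.

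FOXF2, a factor of gut and palate mesenchyme, had 80.2% cover and an H3K79me2 −log10 q of 561. Its other end peaks were H2AZ CST 28.5, H2AZ Abcam 60.0, H3.3 30.2 and H4K16ac 6.11. FOXB1, a factor of the developing brain, also had 80.2% cover, with an H3K79me2 −log10 q of 476. Its other end peaks were H3.3 20.1, H2AZ Abcam 29.1 and H4K16ac 3.10, with none of H2AZ CST; H3.3 covered 60.7% of this gene, the highest H3.3 cover among the covered members. FOXF1, the lung mesenchyme factor, had 67.4% cover and an H3K79me2 −log10 q of 376, with H2AZ CST 13.2, H2AZ Abcam 67.5, H3.3 26.7 and H4K16ac 15.7.

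FOXD3, needed in pluripotent cells and the neural crest, and FOXA1, a factor that opens chromatin in endoderm and breast, showed the reverse balance. H3K79me2 covered 73.7% of FOXD3 with a −log10 q of 147, and H2AZ CST reached 36.5, H2AZ Abcam 164, H3.3 46.1 and H4K16ac 14.1. H3K79me2 covered 71.3% of FOXA1 with a −log10 q of 104, and H2AZ CST reached 63.0, H2AZ Abcam 211, H3.3 47.5 and H4K16ac 10.9. The summits of these H2AZ CST, H2AZ Abcam and H4K16ac peaks lay 7272, 7189 and 6803 bases past the start, beyond the far end of the 5.70 kb gene. Within 1 kb of the start H2AZ CST was 45.6 and H2AZ Abcam 119, with no H4K16ac. An end of the gene TTC6 lies 0.380 kb from FOXA1, so that peaks in the shared window cannot be assigned to either gene. FOXD2, a factor of the kidney and paraxial mesoderm, had the lowest cover of the short covered genes and the strongest H2A.Z of them. Its H2AZ CST −log10 q was 79, H2AZ Abcam 227, H3.3 53.6, H4K16ac 8.18 and H3K79me2 73.7. Within these 9 genes the 3 with the strongest H2A.Z were therefore the 3 with the weakest H3K79me2 end peaks.

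**Figure D2:**
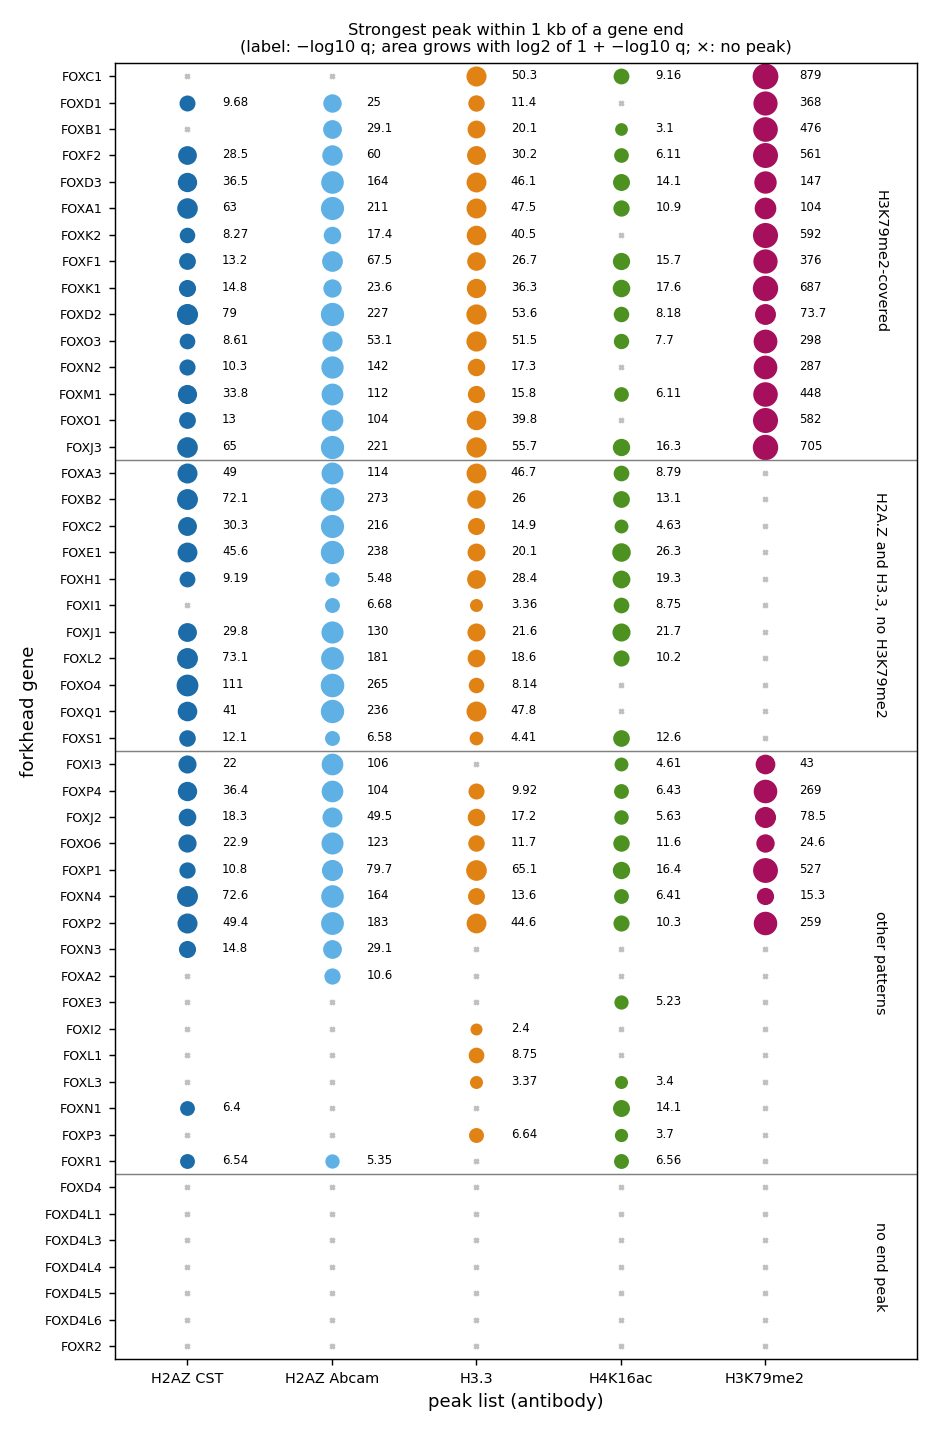
Strongest end peak of 49 forkhead genes (rows, grouped by class) in each of the 5 lists (columns): the printed number is −log10 q, the circle grows with it and a cross marks no peak. FOXC1 in the top row has H3K79me2 at 879 and crosses in both H2A.Z columns; the 7 genes at the bottom have crosses throughout.

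In the 5 long covered genes with a listed start, H3K79me2 covered more of the first part of the gene than of the last, though not in even steps. FOXK2 and FOXK1, which encode factors that bind the deubiquitinase BAP1 and SIN3 complexes, were the most fully covered. A single H3K79me2 peak of 47.3 kb (chr17:82519852-82567148) lay over FOXK2, and 69.2% of its 84.9 kb was covered. The end −log10 q of FOXK2 was 592 for H3K79me2, 40.5 for H3.3, 8.27 for H2AZ CST and 17.4 for H2AZ Abcam, with no H4K16ac at an end. FOXK1 had 63.2% of 89.1 kb under H3K79me2, with an end −log10 q of 687, H2AZ CST 14.8, H2AZ Abcam 23.6, H3.3 36.3 and H4K16ac 17.6. When each gene was cut into 5 equal parts from its start, H3K79me2 covered 98.1% of the first part of FOXK1 and 22.3% of the last. At FOXK2 these shares were 99.3% and 32.1%, with 22.2% in the part before the last.

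H3.3 and H4K16ac ran the other way in the FOXK genes. H3.3 covered 7.40% of the first part of FOXK1 and 25.5% of the last, and at FOXK2 it covered 8.71% and 32.7%. H4K16ac covered 6.82% and 25.5% of these parts at FOXK1, and 0% and 19.0% at FOXK2. In the other long covered genes neither list had a peak past the first part. FOXO3, a stress-response factor restrained by AKT, had 52.0%, 26.6%, 20.9%, 1.43% and 8.53% of its successive parts under H3K79me2. FOXO1, the insulin-restrained factor of liver and fat, had 63.2% of the first part and 14.6% of the second. At FOXJ3 the first part was 73.7% covered and the second 0%.

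FOXM1, the factor of the mitotic programme, and FOXN2 have no listed strand, and their parts were counted from the end with the H3K79me2 peak, a choice that puts the peak in the first part. FOXM1 had 87.2% of the part beside that end covered and 0% of the other 4. FOXN2 had 78.0% of that part covered and 4.46% of the next. Ends of RHNO1 and TEX52 also lie within 1 kb of an end of FOXM1, and its peaks cannot be assigned to a single gene. End −log10 q for H3K79me2 was 705 at FOXJ3, 582 at FOXO1, 448 at FOXM1, 298 at FOXO3 and 287 at FOXN2. All 5 genes also had H3.3 and both H2A.Z lists at an end. Of all covered genes of any length, 90.7% had H3.3 at an end, 94.0% H2AZ CST and 94.5% H2AZ Abcam.

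**Figure D3:**
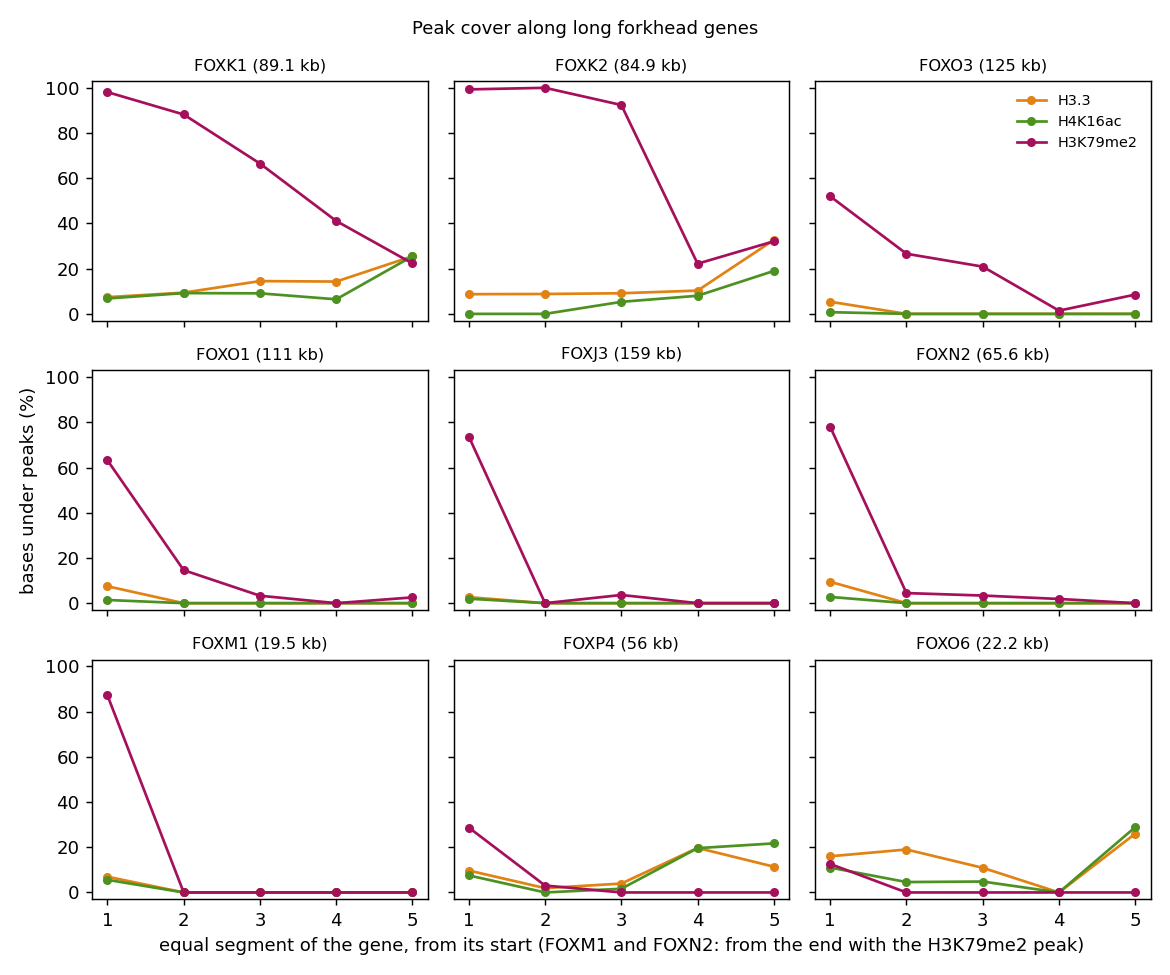
Bases under peaks, in percent, in 5 equal segments of 9 long forkhead genes, for H3.3 (orange), H4K16ac (green) and H3K79me2 (red); segments run from the start, or from the end with the H3K79me2 peak for FOXM1 and FOXN2. H3K79me2 goes from 98.1% to 22.3% along FOXK1 while H3.3 reaches 25.5% in its last segment, and FOXP4 and FOXO6 have H4K16ac in their last segment (21.7% and 28.9%).

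A further 7 members had H3K79me2 at an end but over less than 10% of the gene: FOXI3, FOXJ2, FOXN4, FOXO6, FOXP1, FOXP2 and FOXP4. The rule on percent works against the longest genes, so the covered length is given as well. FOXP1, a factor of lymphocytes, heart and brain, had 7996 bases under H3K79me2, more than any short covered member, yet this was 1.27% of its 629 kb. Its end peaks had −log10 q of 527 for H3K79me2, 65.1 for H3.3, 16.4 for H4K16ac, 10.8 for H2AZ CST and 79.7 for H2AZ Abcam. That H3.3 value was the highest of the family. FOXP2, linked to speech, had 5.16 kb covered and end peaks of 259 for H3K79me2, 44.6 for H3.3, 10.3 for H4K16ac, 49.4 for H2AZ CST and 183 for H2AZ Abcam.

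FOXP4, expressed in lung and gut epithelium, had 3.56 kb covered. Its end values were 269 for H3K79me2, 9.92 for H3.3, 6.43 for H4K16ac, 36.4 for H2AZ CST and 104 for H2AZ Abcam. FOXN4, a factor of retinal progenitors, paired strong H2A.Z (72.6 with CST, 164 with Abcam) with the weakest H3K79me2 end peak of the family, 15.3; H3.3 was 13.6 and H4K16ac 6.41. Between these extremes the H3K79me2 end values were 78.5 at FOXJ2, 43.0 at FOXI3 and 24.6 at FOXO6, the O member found in brain. The covered lengths of these 3 genes were 0.983, 0.523 and 0.558 kb. FOXN4 and FOXJ2 lie 1.18 and 1.33 kb from another coding gene.

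The listed starts showed which part of the 2 longest of these genes carried peaks. For FOXP1, 6 starts are listed, and all 5 lists had a peak within 1 kb of the start that lies 0.250 kb into the gene. A start 519 kb into the gene had H3K79me2 at 62.3, H3.3 at 26.4, H2AZ CST at 22.9 and H2AZ Abcam at 73.5, without H4K16ac. The start at 339 kb had weaker peaks of H2AZ CST (7.73), H2AZ Abcam (15.2) and H3.3 (4.02), and that at 279 kb H2AZ CST alone (7.73). The starts at 40.4 and 452 kb had no peak. For FOXP2 the starts listed are 328 and 340 kb into the gene and neither had a peak, while all 5 lists met at the gene's outer end.

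The 11 H2A.Z-H3.3 members were FOXA3, FOXB2, FOXC2, FOXE1, FOXH1, FOXI1, FOXJ1, FOXL2, FOXO4, FOXQ1 and FOXS1. All were under 10 kb, and none had a base under H3K79me2. The nearest H3K79me2 peak lay a median of 50.5 kb away and more than 10 kb away in 9 of the 11. The exceptions were FOXA3 at 1.02 kb and FOXH1 at 1.19 kb, both just outside the 1 kb window. The list of tissues is wide: FOXA3 acts in liver, FOXC2 in lymph vessels, FOXE1 in thyroid, FOXI1 in acid-secreting kidney cells, FOXJ1 in ciliated cells and FOXL2 in the ovary.

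FOXQ1, a factor of hair and mucous cells, led this class in H3.3 with a −log10 q of 47.8. H2AZ CST was 41.0 and H2AZ Abcam 236 there, with no H4K16ac at an end. FOXA3 followed with H3.3 at 46.7, H2AZ CST 49.0, H2AZ Abcam 114 and H4K16ac 8.79. FOXH1, the partner of SMAD2 in nodal signalling, had H3.3 at 28.4 and H4K16ac at 19.3 but weak H2A.Z, 9.19 with CST and 5.48 with Abcam. FOXH1 overlaps KIFC2, and a peak in its window cannot be assigned to either gene.

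FOXB2, FOXJ1 and FOXE1 all had stronger H2A.Z than FOXH1 with both antibodies. FOXB2, a factor of the neural tube, had H2AZ Abcam at 273, the highest Abcam value of the family and 656th of 13820 genes, with H2AZ CST 72.1, H3.3 26.0 and H4K16ac 13.1. FOXJ1 had H2AZ CST 29.8, H2AZ Abcam 130, H3.3 21.6 and H4K16ac 21.7. FOXE1 had H2AZ CST 45.6, H2AZ Abcam 238, H3.3 20.1 and H4K16ac 26.3, the highest H4K16ac end value of the family.

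The highest H2AZ CST value of the family was 111 at FOXO4, the O member on chromosome X, and it was 253rd of 13761 genes. H2AZ Abcam there was 265 and H3.3 was 8.14, and no H4K16ac or H3K79me2 was at an end. Its relatives FOXO1 and FOXO3 had H2AZ CST at 13.0 and 8.61 and were covered by H3K79me2. Weak peaks carried the class at FOXI1 and FOXS1. H3.3 was 3.36 at FOXI1 and 4.41 at FOXS1, and H2AZ Abcam was 6.68 and 6.58. Another gene ended within 1 kb of 7 of the 11 H2A.Z-H3.3 members and of 6 of the 16 covered members. This held for 4 of the 16 with other patterns and none of the 7 without an end peak, which are FOXR2 and the FOXD4 duplicates. The same share over all genes was not computed, so these counts cannot be read as a trait of a class. The part of these neighbours in the peaks was not tested.

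The short covered genes and the H2A.Z-H3.3 members can be set side by side because both are under 10 kb. The median H3.3 end peak was higher in the 9 covered genes, and the median H2A.Z end peak was higher in the 11 others. The 11 were chosen for having H2A.Z and H3.3 at an end, whereas the 9 were chosen by H3K79me2 cover alone. Covered genes without an H2A.Z end peak are left out of its medians, which rest on 8 of the 9 for Abcam and 7 for CST. The medians therefore compare groups chosen in unlike ways. Median H3.3 end −log10 q was 41.0 (11.4 to 53.6) in the covered genes and 20.1 (3.36 to 47.8) in the H2A.Z-H3.3 members. Among all protein-coding genes under 10 kb the same classes had medians of 34.2 and 16.1. Median H2AZ Abcam was 63.7 (25.0 to 227) in the covered genes with a peak and 181 (5.48 to 273) in the H2A.Z-H3.3 members. Here all genes went the other way, with 104 in the covered class and 58.5 in the H2A.Z-H3.3 class.

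H2AZ CST gave the same order as the Abcam antibody. Its medians were 28.5 in the short covered forkhead genes and 43.3 in the H2A.Z-H3.3 members, against 35.5 and 19.8 in all short genes of those classes. The ranges overlapped in every list, and with members that are single genes of 1 library no test of the differences was made. H4K16ac was at an end of 7 of the 9 (77.8%, against 81.3% of all short covered genes). It was at an end of 9 of the 11 (81.8%, against 83.6% of all short genes of the H2A.Z-H3.3 class). Its medians in the 2 groups were 9.16 and 12.6. In all short genes those medians were 12.3 and 10.1. Over all lengths H4K16ac was at an end of 11 of the 16 covered members (68.8%) and of 75.7% of all covered genes.

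**Figure D4:**
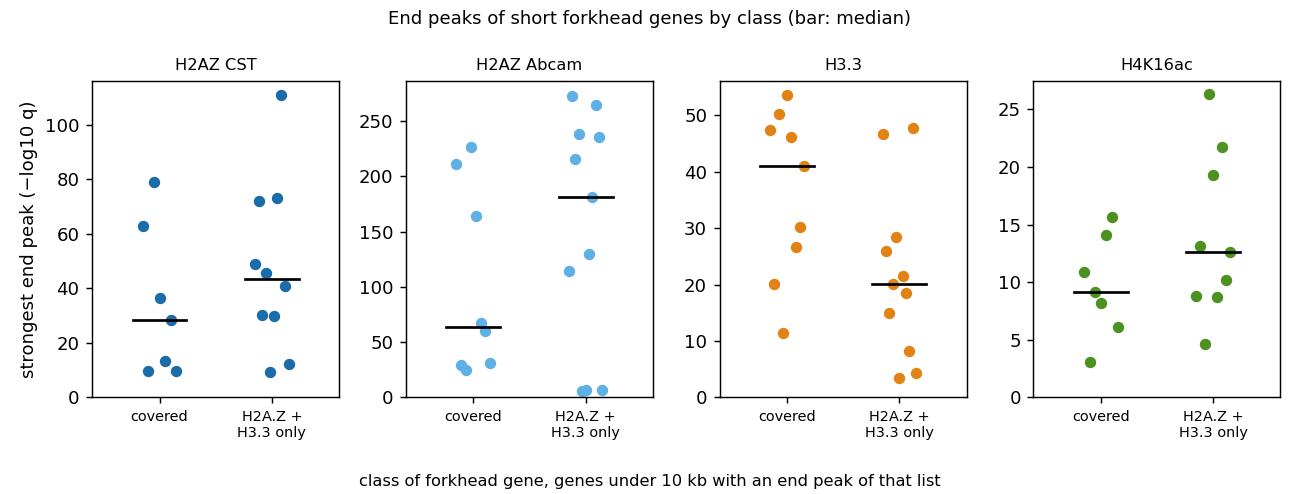
Strongest end peak (−log10 q, linear axes that differ between panels) of forkhead genes under 10 kb: each point is a gene with an end peak of that list, and the bar is the median. H3.3 is higher in the covered genes (median 41.0 against 20.1) and H2AZ Abcam in the H2A.Z-H3.3 members (181 against 63.7), with overlapping ranges.

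Within the covered members the variants lay largely inside the H3K79me2 peaks. Choosing genes by H3K79me2 cover itself favours this. Median H3K79me2 cover was 68.3% in the covered members and 27.9% in all covered genes, so the shares were not compared at equal cover. Over the gene and 1 kb beyond each end, the median share of H2AZ CST bases that were also under H3K79me2 was 100% in the 15 members with such bases, against 92.3% over all covered genes. For H2AZ Abcam the medians were 100% and 89.8%, for H3.3 95.1% and 82.4%, and for H4K16ac 100% in both. FOXD1 and FOXD3 departed from this. At FOXD1, 44.8% of the H2AZ CST bases lay under H3K79me2, and at FOXD3 the shares ran from 54.3% for H4K16ac to 63.5% for H2AZ CST.

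The 7 genes without an end peak were FOXD4, its copies FOXD4L1, FOXD4L3, FOXD4L4, FOXD4L5 and FOXD4L6, and FOXR2, a factor silent in most tissues and switched on in some tumours. The FOXD4 genes are recent duplicates, and 5 of these 6 lie on chromosome 9. Beyond the 1 kb window, an H2AZ Abcam peak lay 2.02 kb from FOXD4L1 and another 2.46 kb from FOXD4. Peaks of the other 4 lists were at least 40.5 kb from these 2 genes, and peaks of all 5 lists were at least 51.3 kb from FOXD4L3 and FOXD4L6, and at least 507 kb from FOXD4L4 and FOXD4L5. The nearest peak to FOXR2 was 91.4 kb away.

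The start windows of the FOXD4 genes were alike in some pairs only. Of the 15 pairs of 300-base windows, FOXD4 and FOXD4L6 matched at 293 of 299 aligned bases (98.0%) and FOXD4L3 and FOXD4L4 at 215 of 215. Another 3 pairs shared a stretch of 58 to 87 bases, and in the other 10 pairs only 7 to 12 bases aligned. The gene bodies were not compared. The sources used here do not say how reads that fit several places were counted, so the values of the 6 FOXD4 genes are uncertain; the part of read placement in their lack of peaks was not tested. Without them, 1 of the remaining forkhead genes, FOXR2, had no end peak.

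A further 9 members had other patterns without H3K79me2 at an end: FOXA2, FOXE3, FOXI2, FOXL1, FOXL3, FOXN1, FOXN3, FOXP3 and FOXR1. FOXA2, a factor of endoderm and liver, had only H2AZ Abcam at an end, with a −log10 q of 10.6. FOXE3, the lens factor, had only H4K16ac (5.23), and FOXI2 and FOXL1 had only H3.3 (2.40 and 8.75). The FOXI2 value was the last but 1 of 12548 genes ranked. FOXN1, the thymic epithelium factor, had H2AZ CST at 6.40 and H4K16ac at 14.1. FOXL3 had H3.3 at 3.37 and H4K16ac at 3.40.

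FOXP3, the factor of regulatory T cells, had H3.3 (6.64) and H4K16ac (3.70) at its far end only, where it overlaps CCDC22. FOXR1 had its peaks at the far end as well, with H4K16ac at 6.56, H2AZ CST at 6.54 and H2AZ Abcam at 5.35. FOXN3, a checkpoint factor, had H2AZ CST at 14.8 and H2AZ Abcam at 29.1 at its start. It was the only member with H3K79me2 inside the gene and none at an end. Those 3 peaks covered 1.75 kb in the middle part of 5 along its 463 kb, and H2A.Z, H3.3 and H4K16ac peaks lay in the same part.

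Close relatives often fell into different classes. FOXF1 and FOXF2 were both covered, as were FOXK1 and FOXK2. FOXA1 was covered, FOXA3 was an H2A.Z-H3.3 member and FOXA2 had a weak H2A.Z peak alone. FOXB1 and FOXC1 were covered while FOXB2 and FOXC2 were H2A.Z-H3.3 members. In the D group FOXD1, FOXD2 and FOXD3 were covered and the other 6 of 9 had no end peak. Of the 4 O genes, 3 had H3K79me2 at an end, and of the 4 P genes 3 did, FOXP3 being the other.

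Of the forkhead genes that lie within 500 kb of each other, some neighbours shared a class and others did not. On chromosome 6, FOXQ1, FOXF2 and FOXC1 follow each other at gaps of 74.8 and 214 kb, and FOXF2 and FOXC1 were covered while the nearest H3K79me2 peak to FOXQ1 was 73.1 kb away. On chromosome 16, FOXF1 was covered, FOXC2 at 51.4 kb was an H2A.Z-H3.3 member, and FOXL1 at a further 8.82 kb had a single H3.3 peak at an end. FOXC2 had end peaks of H3.3 at 14.9, H4K16ac at 4.63, H2AZ CST at 30.3 and H2AZ Abcam at 216. On chromosome 1, FOXE3 with its lone H4K16ac peak lies 20.0 kb from the covered FOXD2. FOXD4L5 and FOXD4L4, 452 kb apart on chromosome 9, both had no end peak.

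The reference lists a start, and with it a strand, for 39 of the 50 members. Among the 19 of these with H3K79me2 at an end, it was at the start end alone in 12 (63.2%), at both ends in 7 (36.8%) and at the far end alone in none. Over all genes with a listed start and H3K79me2 at an end, 83.7% had it at the start end alone and 13.8% at both. H2AZ CST was at the start end alone in 19 of 26 members with a peak (73.1%, against 88.2% of all such genes) and H2AZ Abcam in 21 of 27 (77.8%, against 89.0%). H3.3 was at the start end alone in 14 of 28, against 67.9% of all such genes, and at both ends in 13 (46.4%, against 27.6%). H4K16ac was at the start end alone in 15 of 25 (60.0%, against 65.3%) and at the far end alone in 3 (12.0%, against 8.83%). Of the 50 forkhead genes, 34 were under 10 kb, and these shares were not compared at equal length. FOXL2 was an exception for H2A.Z, with H2AZ CST at 73.1 and H2AZ Abcam at 181 at its far end and none at its start; an end of FOXL2NB lies 0.0800 kb from FOXL2.

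**Figure D5:**
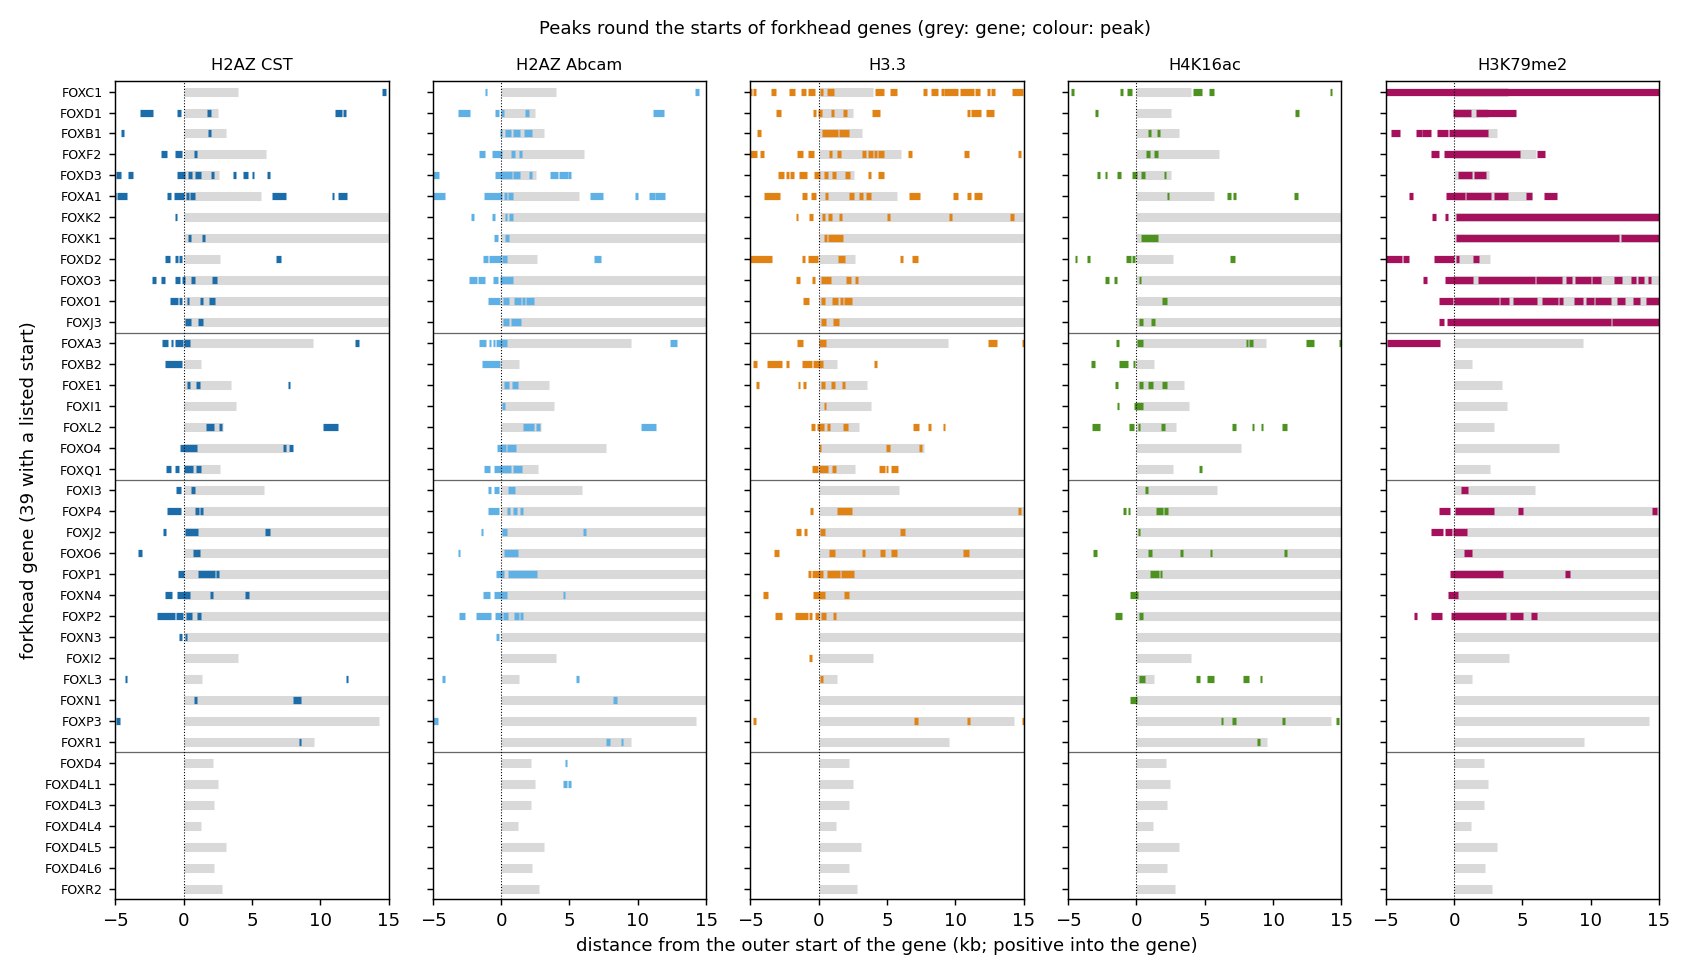
Peaks (coloured) from 5 kb before to 15 kb after the outer start of the 39 forkhead genes with a listed start (grey bars), in kb, with 1 panel per list; lines part the covered genes, the H2A.Z-H3.3 members, other patterns and genes with no end peak. H3K79me2 fills or nearly fills the FOXC1, FOXK1, FOXK2 and FOXJ3 rows past the start, and the 7 lowest rows hold only 2 genes with H2AZ Abcam peaks, which lie beyond 1 kb of the gene.

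Promoters of covered members were richer in CpG by the median than those of members without an end peak, with overlapping ranges. CpG observed over expected, the number of CpG sites relative to that from the C and G content, was taken over the 300-base start windows. Its median was 0.81 in the 39 forkhead genes with a window and 0.77 in all 15412 genes with one. It was 0.95 in 12 covered members, 0.81 in 7 H2A.Z-H3.3 members, 0.87 in 13 with other patterns and 0.50 in the 7 without an end peak. All genes of those classes had medians of 0.88, 0.69, 0.80 and 0.25. The printed stretches show the ends of this range, with CpG throughout those of FOXC1 and FOXK2 and nearly none in that of FOXR2. Covered members ran from 0.43 at FOXB1 to 1.19, and members without an end peak from 0.11 to 0.70, the value of FOXD4. Covered FOXJ3 (0.61) and FOXD1 (0.63) were also below FOXD4. All members without an end peak except FOXR2 are FOXD4 and its copies, some with nearly the same window.

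The forkhead core TGTTTAC, searched on both strands with its reverse complement GTAAACA, was in the start window of 1 of the 39 members, FOXO4. It was in 2.63% of the 15412 windows. The letters describe the window and do not show a bound site.

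Genes that act with the forkhead factors were described from 4 lists. The 19 regulators of FOXO proteins in the AKT pathway had H3K79me2 at an end in 18, against 55.4% of all genes. They were covered in 12 (63.2%, against 30.5% of all genes). YWHAE, which encodes an adaptor that holds phosphorylated FOXO in the cytoplasm, had 97.8% cover, and its relative YWHAQ 76.2%. SGK1, a kinase that phosphorylates FOXO3, was the member without H3K79me2 at an end. The 22 FOXO target genes had H3K79me2 at an end in 13 and were covered in 8 (36.4%), both near the shares of all genes (55.4% and 30.5%). CDKN1B, the cell cycle inhibitor p27, was covered over 100% and the mitophagy gene BNIP3 over 64.2%. The gluconeogenic genes G6PC1 and PCK1, which work in liver and kidney, had no end peak of any list.

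All 22 targets and partners of FOXM1 had H3K79me2 at an end, against 55.4% of all genes, and 20 were covered (90.9%, against 30.5%). CENPB and CDC25B of this list lie side by side on chromosome 20. They had the same end values for H3K79me2 (648) and for both H2A.Z lists, and each was counted. The highest H3K79me2 cover in this list was at the centromere protein gene CENPB (95.3%) and at CKS1B, a cofactor of cyclin-dependent kinases (87.6%). Of 16 partners of FOXK and other forkhead proteins, 14 had H3K79me2 at an end (55.4% of all genes) and 13 were covered (81.2%, against 30.5%). DVL1 and DVL2, the dishevelled proteins of Wnt signalling that FOXK proteins bind, had 86.9% and 74.3%. No gene of the other 3 lists lacked an end peak, against 21.5% of all genes. All 19 AKT-pathway and all 22 FOXM1 genes had both H2A.Z lists at an end. Over all genes H2AZ CST was at an end of 70.7% and H2AZ Abcam of 71.1%. Median H3K79me2 cover was 22.3% in the AKT-pathway list, 5.13% in the FOXO targets, 18.8% in the FOXM1 list and 26.1% in the partners, against 1.37% over all genes. SKP2 and PIK3CA each stand in 2 lists. The H2A.Z-H3.3 pattern was found at 2 FOXO targets, SESN3 and KLF2, and at 1 partner, NFATC2, against 12.0% of all genes.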

How the data were processed

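ChIP-seq peak lists of 5 antibodies in HEK293T cells were the starting point. The submitters' processing notes name bcl2fastq 2.17, Trimmomatic 0.33, Bowtie 1.1.2 and MACS2 2.1.0, and build hg38. The sources used here do not give settings, duplicate handling, use of the input or read depth, and no intervals are given. The deposited lists hold, per peak, a fold enrichment ratio over background, −log10 p and −log10 q values, an integer score (not used) and a summit, all as the authors' caller wrote them. The smallest −log10 q was 2.00 to 2.06 per list. Lists were called from 1 library each and were not normalised to each other.

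End windows of 1 kb, gene cover and classes were computed for 19451 genes (Python 3.11.15, pandas 2.3.3, numpy 2.4.6, Biopython 1.88 for promoter alignment, matplotlib 3.10.9); the calls were tested on simulated peaks. The RefSeq gene table is GRCh38.p14, the assembly behind hg38, and gives no strand; starts came from RefSeq promoters, present for 39 members. Counts stand beside the share of all genes; no p-value was computed. The members and the gene lists were chosen with earlier results of these data known. Members are named with their class, except 1 that counts in all totals but is not reported individually here and is not in the plot of end peaks by gene. Full values were planned for the 8 with most H3K79me2 cover, the 6 H2A.Z-H3.3 members with the strongest H3.3, the 4 strongest of the remaining classes, forkhead genes within 500 kb of each other, and per gene list the 2 with most H3K79me2 cover and those with no end peak; other members' values were chosen after being seen. Alternatives were other windows, starts alone, stricter peaks, summits, other cover limits, both H2A.Z antibodies and leaving out the FOXD4 copies; members with a listed start at either end was added after seeing the data.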

Additional observations from a re-analysis of the deposited data

How the results depend on the processing

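Of 69 counts under alternatives, 58 stayed within 1.5 times the reported count and 11 did not. With only the 10000 strongest peaks per list, H3.3 was at an end of 16 members, H2AZ CST of 14 and H2AZ Abcam of 20. H4K16ac was at an end of 7, while 2 of the 50 members had the H2A.Z-H3.3 pattern and 18 no end peak. Over all genes the shares were 28.3%, 37.4%, 39.4%, 16.3%, 4.96% and 38.1%, in the same order. The members' shares for H4K16ac and for the H2A.Z-H3.3 pattern were then below those of all genes, where the main shares were above. The remaining shares stayed on the same side of all genes as in the main counts. With the listed starts alone, H4K16ac was at 21 members (53.8%, against 54.5%) and the H2A.Z-H3.3 pattern at 6 (15.4%, against 10.7%). No peak was found at 10 (25.6%, against 19.5%), a share above that of all genes, where the main count was below it. At either end of those 39 members, an alternative added after seeing the data, the pattern was at 7 (17.9%, against 11.2%). These last settings test fewer genes or a smaller window, and the first fewer peaks. With cover of at least 50%, 10 members were covered (20.0%, against 7.46%). Without FOXD4 and its copies, 1 member had no end peak (2.27%, against 21.5%). The count of H3K79me2 at an end ran from 17, with the summit inside the window, to 25, with windows of 2.5 or 5 kb.

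No paired analysis was possible because each antibody had 1 library. No replicate was left out for the same reason. Read depth is unknown, and peaks at short or adjoining genes cannot be assigned to a single gene. Absence from a list is not absence of the protein or mark.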
